A study of Mus musculus with 6 samples.

Results

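α7Sca1 cells are Lin- cells that carry both α7-integrin, the laminin receptor used to sort satellite cells (SCs), and Sca1, the surface antigen used to sort fibroadipogenic progenitors (FAPs). Their transcriptome was compared with that of Lin-/Sca1-/α7-integrin+ SCs from muscle of the same treatment (SCs DT), to ask how far cells sharing a sort marker of SCs resemble them. The comparison was defined by its libraries, 4 of the 6 in the series, and by the genes listed above 0.25 RPKM in at least 1 of the 4, which were 13611 of 21671. All mice were homozygous mdxITGAM-DTR animals, males and females aged 10 to 12 weeks. The mdx allele removes dystrophin and models Duchenne muscular dystrophy, and the ITGAM-DTR transgene places the diphtheria toxin (DT) receptor on CD11b+ myeloid cells, so that DT depletes monocytes and macrophages (MΦs). The muscles of both groups had been injected with DT every 4 days and were taken 15 days after the first injection. The 2 remaining libraries, SCs of PBS-injected mice of the same strain (SCs CTRL), entered only the estimate of the spread. Every library was 1 sorted pool from the gastrocnemius muscles of 2 mice, with n = 2 libraries per group, and CD31, CD45 and Ter119 made up the Lin gate. The α7Sca1 libraries have no counterpart from PBS-injected muscle, so a difference from SCs DT belongs to the cells as sorted after DT.

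SCs are the stem cells of skeletal muscle. They hold the transcription factor Pax7, and on activation they express Myf5 and Myod1, divide, and then under Myog leave the cycle, fuse and build sarcomeres. Adipocyte differentiation runs through another set of regulators, in which C/EBP factors and the nuclear receptor PPARγ switch on the genes of lipid uptake, triglyceride synthesis and the lipid droplet, together with secreted adipokines. In skeletal muscle, fat cells arise mainly from FAPs, which express Pdgfra and Sca1. For α7Sca1 cells the authors propose an origin from SCs, after transplanting labelled SCs and FAPs. The origin of the cells was not tested here.

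The deposited RPKM values (reads scaled to the length of the transcript and the reads of the library) had been brought to one distribution, since the sorted values of the 6 libraries differed by at most 0.0192 RPKM. A gene's RPKM therefore gives its rank within a library, the highest value was 7389 RPKM in each, and the depth of the libraries is unknown. Differences are given as log2 fold changes of RPKM + 1, α7Sca1 cells minus SCs DT, a scale on which genes of low RPKM show less than their true ratio, and a gene was called at an adjusted p under 0.05 in limma with Benjamini-Hochberg adjustment over all genes tested. The smallest two-sided p of an exact permutation test at this size (n = 2 each) is 0.333. The calls rest instead on limma's model, with 3 residual degrees of freedom per gene over the 6 libraries and 4.32 prior ones pooled over genes. At the edge of the filter, Lrtm2 entered with a maximum of 0.250063 RPKM, and Gm5150 stayed out with 0.249727 RPKM.

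The shares of all genes called are the background for each count below. The gene lists were chosen with earlier results of these data known, so their counts are not independent of these data. Of 13611 genes, 4260 (31.3%) were called, 2066 (15.2%) higher and 2194 (16.1%) lower in α7Sca1 cells. Steep increases outnumbered steep decreases. An increase of at least 3 on the log2 scale was called for 174 genes and a decrease of that size for 69, and beyond 5 the counts were 32 and 4. The median log2 fold change of all genes tested was -0.05. Leaving out either SC DT library moved the counts most, to 854 higher and 791 lower without SC DT replicate 1 and to 1012 higher and 1064 lower without SC DT replicate 2.

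**Figure D1:**
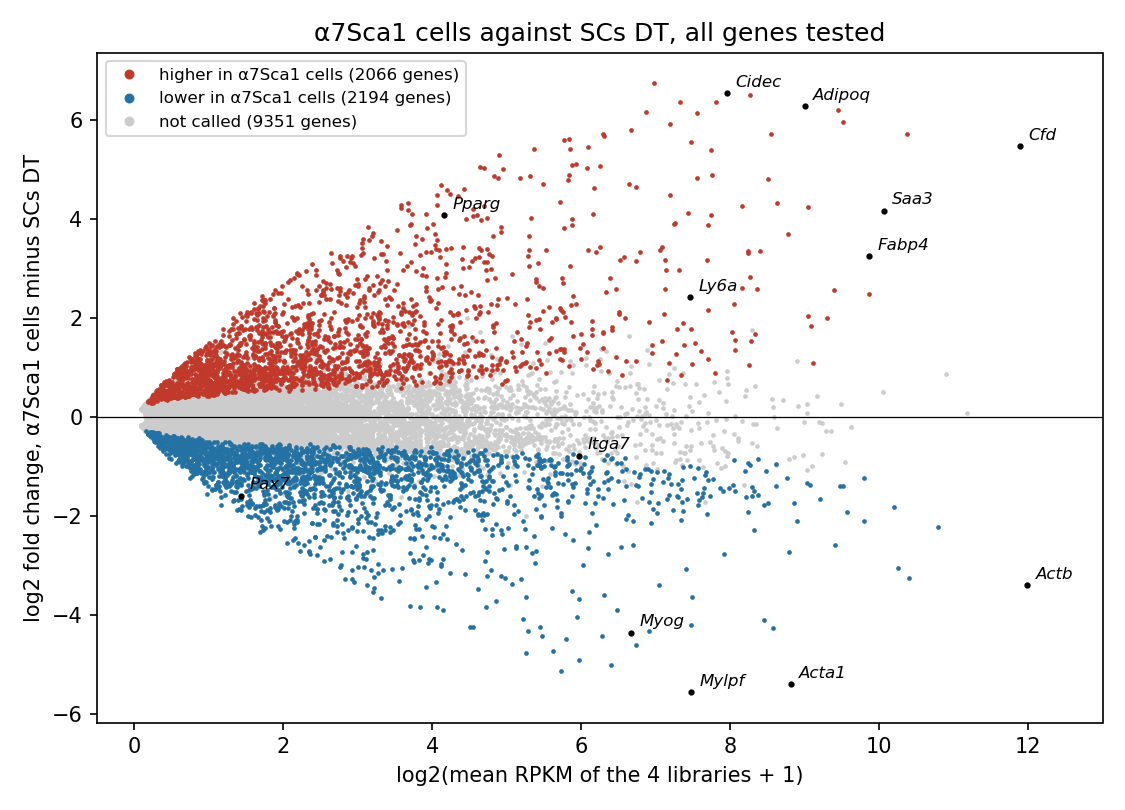
Log2 fold change of each of the 13611 genes tested (vertical axis, α7Sca1 cells minus SCs DT) against the log2 of its mean RPKM + 1 over the 4 libraries. Red points are the 2066 genes called higher, blue points the 2194 called lower and grey points the rest, and labelled black points are genes of the text.

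Both sort markers were read first, since they check the labels. Ly6a, which encodes Sca1 (NCBIM37 chr15:74825308-74828064, minus strand), was at 344 and 248 RPKM in α7Sca1 cells, against 51.8 and 55.2 RPKM in SCs DT (log2 fold change 2.43 ± 0.28, SE, adjusted p = 0.000997 by limma). It stood higher in both α7Sca1 libraries, although SCs DT, sorted as Sca1-, also held the transcript. Itga7, which encodes α7-integrin (NCBIM37 chr10:128370869-128395333, plus strand), was at 41.8 and 48.5 RPKM in α7Sca1 cells, against 78.3 and 77.6 RPKM in SCs DT (log2 fold change -0.78, adjusted p = 0.0329 by limma). The transcript was thus present in all 4 libraries and lower in α7Sca1 cells, a call that was lost without any one of the 4 SC libraries. Adipoq, the adipokine adiponectin (NCBIM37 chr16:23146609-23158101, plus strand), was at 1006 and 1006 RPKM in α7Sca1 cells, against 5.82 and 23.9 RPKM in SCs DT (log2 fold change 6.27, adjusted p = 0.000283 by limma). Pparg, the receptor that drives adipogenesis (NCBIM37 chr6:115311239-115440419, plus strand), was at 28.05 and 37.6 RPKM in α7Sca1 cells, against 0.887 and 1.08 RPKM in SCs DT (log2 fold change 4.08 ± 0.21, SE, adjusted p = 0.00012 by limma). By these markers both libraries labelled α7Sca1 held more Ly6a, Adipoq and Pparg than either SC DT library, beside a lower but present level of the integrin. In sorted pools, fewer cells of a type and less RNA per cell cannot be told apart.

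**Figure D2:**
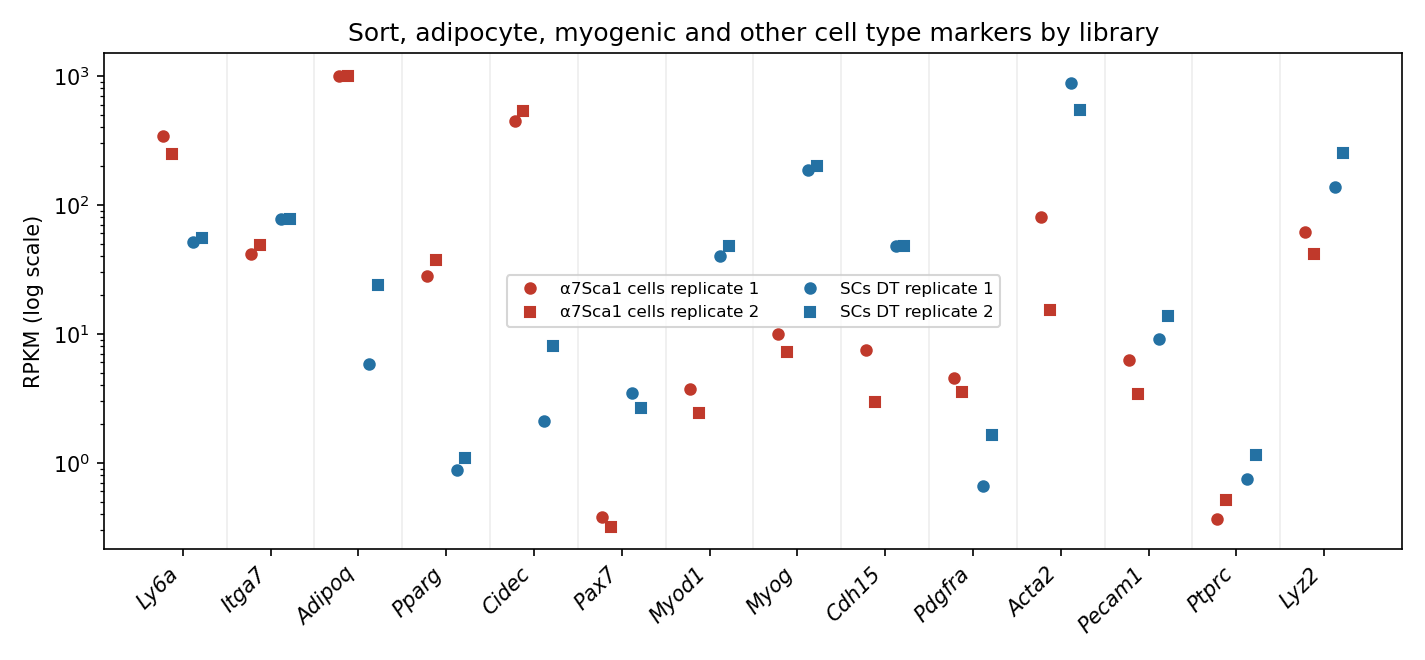
RPKM on a log scale of sort markers (Ly6a, Itga7), adipocyte genes (Adipoq, Pparg, Cidec), myogenic genes (Pax7, Myod1, Myog, Cdh15) and genes of other cell types in the 2 α7Sca1 libraries (red, left in each pair) and the 2 SC DT libraries (blue, right). Circles are replicate 1 and squares replicate 2. The lower library of the higher group lies above both libraries of the other group for each gene shown. The same held for 67.8% of all genes tested, and Ptprc was not called.

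The largest increases were ranked by log2 fold change among called genes whose libraries did not overlap and whose higher group averaged 5 RPKM or more. Adig, a small adipocyte membrane protein, led at 282 and 216 RPKM in α7Sca1 cells, against 0.736 and 2.13 RPKM in SCs DT (log2 fold change 6.73, adjusted p = 0.00012 by limma). It was followed by Cidec, which enlarges lipid droplets, at 445 and 534 RPKM in α7Sca1 cells, against 2.09 and 7.996 RPKM in SCs DT (log2 fold change 6.53, adjusted p = 0.00018 by limma). Cdo1, the enzyme that oxidises cysteine, was at 568 and 647 RPKM in α7Sca1 cells, against 2.77 and 10.9 RPKM in SCs DT (log2 fold change 6.503, adjusted p = 0.000199 by limma). Retn, the adipokine resistin, Cyp2f2 and Cyp2e1, a pair of cytochromes P450, and Adipoq itself came next. Their log2 fold changes were 6.37 for Retn, 6.36 for Cyp2f2, 6.27 for Adipoq and 6.21 for Cyp2e1. Mrap, the accessory protein of the corticotropin receptor of fat cells, was at 148 and 309 RPKM in α7Sca1 cells, against 0.584 and 4.75 RPKM in SCs DT (log2 fold change 6.15). The other 4 of the highest 12 were Wfdc21 (log2 fold change 6.14), a secreted protein of the whey acidic protein family, Car3 (5.96), a carbonic anhydrase of fat and slow muscle, Saa1 (5.91), an acute-phase apolipoprotein, and Hcar2 (5.78), the niacin receptor that restrains lipolysis. The ranking required groups that did not overlap, which held for 67.8% of all genes tested, and in all 12 SC DT replicate 2 had more than SC DT replicate 1.

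The largest decreases were in genes of the sarcomere. Mylpf, the fast regulatory myosin light chain, was at 6.15 and 6.62 RPKM in α7Sca1 cells, against 308 and 386 RPKM in SCs DT (log2 fold change -5.55, adjusted p = 0.000197 by limma). Acta1, skeletal α-actin, was at 22.9 and 15.999 RPKM in α7Sca1 cells, against 631 and 1131 RPKM in SCs DT (log2 fold change -5.39, adjusted p = 0.000219 by limma). Sln, a small inhibitor of the calcium pump, followed at 1.34 and 2.47 RPKM in α7Sca1 cells, against 74.1 and 129 RPKM in SCs DT (log2 fold change -5.12, adjusted p = 0.000157 by limma). The fast troponin subunits Tnnc2, Tnni2 and Tnnt3 had log2 fold changes of -5.001, -4.899 and -4.72, Ckm, the muscle creatine kinase, -4.76, Myl1, an essential light chain, -4.602, Atp2a1, the fast calcium pump, -4.48, and Actc1, cardiac α-actin, -4.41. Of the 12 genes that fell most, 10 encode proteins of contraction or its energy and calcium supply. The other pair were Pcp4l1, a small calmodulin-binding protein (log2 fold change -4.41), and Myog (-4.35), the factor of myogenic differentiation. Levels in the α7Sca1 libraries were low but not absent, with Acta1 at 22.9 and 15.999 RPKM there.

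Promoters were taken from among the largest increases, Adipoq and Cidec, and from the largest decreases, Mylpf and Acta1. They are printed because myogenic factors are known to bind E-boxes. Sequences are from RefSeq on GRCm38.p6, 250 bases before and 50 bases after the annotated start, read 5′ to 3′ on the gene's strand. Capitals mark every match on either strand to CAGCTG, the E-box form preferred by MyoD-type factors, and to TATAAA, the TATA box, and no match to TTGCNNAA, a form bound by C/EBP factors, was found in these windows. The promoters are those of Adipoq (chr16:23146286-23146585, plus strand), Cidec (chr6:113435711-113436010, minus strand), Mylpf (chr7:127211358-127211657, plus strand) and Acta1 (chr8:123894726-123895025, minus strand).
Adipoq: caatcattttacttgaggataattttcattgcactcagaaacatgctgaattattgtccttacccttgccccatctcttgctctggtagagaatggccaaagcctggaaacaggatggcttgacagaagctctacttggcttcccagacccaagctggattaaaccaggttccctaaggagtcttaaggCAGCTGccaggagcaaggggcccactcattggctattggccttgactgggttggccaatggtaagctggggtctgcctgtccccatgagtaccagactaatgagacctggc
Cidec: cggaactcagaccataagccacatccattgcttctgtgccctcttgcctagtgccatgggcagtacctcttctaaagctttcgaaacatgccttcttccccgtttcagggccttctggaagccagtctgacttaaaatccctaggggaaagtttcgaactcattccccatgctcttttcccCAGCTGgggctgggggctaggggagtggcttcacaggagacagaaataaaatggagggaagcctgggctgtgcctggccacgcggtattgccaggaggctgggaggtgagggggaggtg
Mylpf: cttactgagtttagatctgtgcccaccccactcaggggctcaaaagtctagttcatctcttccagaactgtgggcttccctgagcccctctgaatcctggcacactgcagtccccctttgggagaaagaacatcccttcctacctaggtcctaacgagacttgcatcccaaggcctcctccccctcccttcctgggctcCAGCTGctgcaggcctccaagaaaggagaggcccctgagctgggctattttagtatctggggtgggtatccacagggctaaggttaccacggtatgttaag
Acta1: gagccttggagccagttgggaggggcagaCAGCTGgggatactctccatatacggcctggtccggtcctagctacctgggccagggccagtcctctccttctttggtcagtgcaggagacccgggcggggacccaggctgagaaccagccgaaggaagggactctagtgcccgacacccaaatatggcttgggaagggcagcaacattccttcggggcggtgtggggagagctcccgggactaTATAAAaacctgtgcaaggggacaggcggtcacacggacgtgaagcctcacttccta
All 4 windows hold 1 CAGCTG match, whichever way the gene moved, and the window of Acta1 also holds a TATA box. Over gene sets, 17 of the 38 promoters found for the contractile list (44.7%) held CAGCTG, against 15 of 70 (21.4%) for the 5 adipocyte lists described below and 1547 of 10059 (15.4%) for all genes tested with a promoter. TATAAA was in 10 of the 38 contractile promoters (26.3%), 5 of 70 adipocyte promoters (7.14%) and 765 of 10059 (7.61%) of all. TTGCNNAA was in 6 of 70 adipocyte promoters (8.57%), 4 of 38 contractile promoters (10.5%) and 860 of 10059 (8.55%) of all. Over every promoter in the reference table the shares were 16.1% for CAGCTG, 14.2% for TATAAA and 10.8% for TTGCNNAA. No position is shared between a match of one motif and a match of another in the 4 windows printed. A match describes the letters of these windows and no binding was measured.

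Most genes of the adipogenic transcription factor list stood higher. Of 18 genes, 12 rose and 1 fell, with a median log2 fold change of 1.31, and without SC DT replicate 1 the count that rose was 7. Besides Pparg, Mlxipl, the carbohydrate-sensing factor ChREBP, was at 9.94 and 12.6 RPKM in α7Sca1 cells, against 0.227 and 0.3402 RPKM in SCs DT (log2 fold change 3.25, adjusted p = 0.000132 by limma). Nr1h3, the oxysterol receptor LXRα, was at 21.8 and 21.4 RPKM in α7Sca1 cells, against 1.303 and 2.28 RPKM in SCs DT (log2 fold change 3.04, adjusted p = 0.000288 by limma). Cebpa, the C/EBP factor of terminal differentiation, was at 5.63 and 6.47 RPKM in α7Sca1 cells, against 0.798 and 0.765 RPKM in SCs DT (log2 fold change 1.98, adjusted p = 0.000262 by limma). Its relatives of the early phase were not called, Cebpb at 2.57 and 3.31 RPKM in α7Sca1 cells, against 1.798 and 1.799 RPKM in SCs DT and Cebpd at 7.81 and 7.68 RPKM in α7Sca1 cells, against 13.8 and 9.58 RPKM in SCs DT (adjusted p = 0.07 and 0.323 by limma). Zfp423, a zinc finger factor of preadipocyte commitment, rose at a low level, at 2.57 and 1.51 RPKM in α7Sca1 cells, against 0.153 and 0.242 RPKM in SCs DT (log2 fold change 1.32, adjusted p = 0.0034 by limma). Stat5a (log2 fold change 2.42), Ebf2 (1.36) and Klf15 (1.77) also rose, Klf15 not without either SC DT library. Lpin1, an enzyme of lipid synthesis counted in this list, rose as well (3.196), but not without SC DT replicate 1. Srebf1, the factor of fatty acid synthesis, was at 29.1 and 16.1 RPKM in α7Sca1 cells, against 9.47 and 13.7 RPKM in SCs DT (adjusted p = 0.081 by limma). Klf5, an early adipogenic factor, was the member that fell, at 2.23 and 0.957 RPKM in α7Sca1 cells, against 5.05 and 3.496 RPKM in SCs DT (log2 fold change -1.05, adjusted p = 0.0314 by limma), a call lost without SC CTRL replicate 1, either SC DT library or α7Sca1 replicate 2.

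The adipokines had the highest summed level of the lists in α7Sca1 cells, most of it from 1 gene, Cfd. Of 14 tested, 10 rose and 1 fell (median log2 fold change 2.68), and the summed level was 9570.4 and 9868 RPKM in α7Sca1 cells, against 178 and 501 RPKM in SCs DT. Cfd, the complement factor adipsin, was at the ceiling of the table in both α7Sca1 libraries, at 7389 and 7389 RPKM in α7Sca1 cells, against 72.03 and 379 RPKM in SCs DT, so its log2 fold change of 5.47 (adjusted p = 0.00119 by limma) is limited by that ceiling. Rbp4, the retinol carrier, was at 142 and 80.9 RPKM in α7Sca1 cells, against 0.595 and 2.05 RPKM in SCs DT (log2 fold change 5.61, adjusted p = 0.000278 by limma). Agt, angiotensinogen, was at 87.1 and 178 RPKM in α7Sca1 cells, against 0.998 and 3.13 RPKM in SCs DT (log2 fold change 5.45, adjusted p = 0.000232 by limma). Angptl4, an inhibitor of lipoprotein lipase, was at 425 and 672 RPKM in α7Sca1 cells, against 52.7 and 50.1 RPKM in SCs DT (log2 fold change 3.35, adjusted p = 0.00102 by limma). Lep, leptin, was listed at 0 in both SC DT libraries and at 1.505 and 1.12 RPKM in α7Sca1 cells (adjusted p = 0.000493 by limma), far below Adipoq in the same libraries. Rarres2, the chemoattractant chemerin, had a log2 fold change of 3.17, and Nrg4, a growth factor of the EGF family, 2.19. Fndc5, the precursor of irisin known as a muscle product, was the member that fell (log2 fold change -1.05, adjusted p = 0.00132 by limma). The remaining 3 genes tested overlapped between the groups.

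Lipid droplet genes rose beside those of lipolysis. Of 21 genes, 16 rose and 1 fell (median 2.35). Of the lipases, Pnpla2, adipose triglyceride lipase, was at 557 and 1070.5 RPKM in α7Sca1 cells, against 47.2 and 73.5 RPKM in SCs DT (log2 fold change 3.69, adjusted p = 0.000573 by limma), and Lipe, hormone-sensitive lipase, at 98.7 and 136 RPKM in α7Sca1 cells, against 1.69 and 3.33 RPKM in SCs DT (log2 fold change 5.101, adjusted p = 0.000132 by limma). Mgll, which completes the hydrolysis, had a log2 fold change of 2.08. The activator of Pnpla2, Abhd5, and its inhibitor, G0s2, rose together, with log2 fold changes of 2.65 and 3.13. Adrb3, the β-adrenergic receptor of fat cells, was at 18.2 and 28.2 RPKM in α7Sca1 cells, against 0.109 and 0.564 RPKM in SCs DT (log2 fold change 4.17, adjusted p = 0.000148 by limma). The droplet coats Plin1, Plin4 and Plin5 had log2 fold changes of 3.66, 4.34 and 2.35. Plin2, a coat found in most cells with droplets, was at 203 and 92.8 RPKM in α7Sca1 cells, against 23.9 and 39.5 RPKM in SCs DT (2.12, not called without SC DT replicate 1), and Plin3 was at 20.4 and 12.7 RPKM in α7Sca1 cells, against 10.2 and 10.9 RPKM in SCs DT (adjusted p = 0.129 by limma). Cav1 and Cavin1 (listed as Ptrf), the coat proteins of caveolae, which abound in fat cells, were not called, at log2 fold changes of -0.98 and -0.33 (adjusted p = 0.0539 and 0.311 by limma).

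Enzymes of fatty acid and triglyceride synthesis were called in nearly the whole list. Of 19 genes, 16 rose and 2 fell (median 2.61), and the sum was 1163 and 710.1 RPKM in α7Sca1 cells, against 163 and 129 RPKM in SCs DT. Pck1, which feeds glyceroneogenesis, was at 64.9 and 94.5 RPKM in α7Sca1 cells, against 0.364 and 1.56 RPKM in SCs DT (log2 fold change 5.41, adjusted p = 0.000142 by limma). Dgat2 and Gpd1, of triglyceride and glycerol phosphate synthesis, had log2 fold changes of 4.78 and 4.701. Of the acyltransferases, Gpam was at 3.32, Agpat2 at 3.33 and Dgat1 at 2.99 on that scale. De novo synthesis was represented by Acly (1.29), Acaca (2.38), Fasn (2.55) and Scd1 (4.48), all called, with Fasn at 32.2 and 17.9 RPKM in α7Sca1 cells, against 3.12 and 3.42 RPKM in SCs DT. Acly was not called without either SC DT library. Thrsp, a nuclear protein of lipogenic tissue, rose but differed between the α7Sca1 libraries, at 202 and 26.1 RPKM in α7Sca1 cells, against 1.395 and 0.993 RPKM in SCs DT (log2 fold change 5.08, adjusted p = 0.00331 by limma). Elovl5, an elongase of polyunsaturated fatty acids, fell, at 17.4 and 14.1 RPKM in α7Sca1 cells, against 95.2 and 64.03 RPKM in SCs DT (log2 fold change -2.25, adjusted p = 0.00103 by limma), and Elovl6 was not called (log2 fold change -0.19, adjusted p = 0.426 by limma).

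Uptake and carriage of lipids followed. Of 19 genes, 12 rose and 3 fell (median 1.13), and the count that rose was 7 without SC DT replicate 1. Lpl, the lipase that frees fatty acids from lipoproteins, was at 93.9 and 314 RPKM in α7Sca1 cells, against 3.76 and 9.12 RPKM in SCs DT (log2 fold change 4.64, adjusted p = 0.00155 by limma). Slc27a1, a fatty acid transporter, was at 277 and 557 RPKM in α7Sca1 cells, against 5.21 and 13.3 RPKM in SCs DT (log2 fold change 5.39, adjusted p = 0.000288 by limma). Fabp4, the fatty acid carrier of fat cells, was at 1818 and 1559 RPKM in α7Sca1 cells, against 144 and 214 RPKM in SCs DT (log2 fold change 3.25, adjusted p = 0.00044 by limma). Apoc1 (log2 fold change 5.71), Acsl1 (4.71), Aqp7 (3.15), the glycerol channel, and Apoe (2.48) also rose, Apoe not without SC DT replicate 1. Cd36, the scavenger receptor that takes up fatty acids, was already high in SCs DT, at 74.3 and 79.2 RPKM in α7Sca1 cells, against 26.7 and 34.7 RPKM in SCs DT (log2 fold change 1.304, adjusted p = 0.0159 by limma), and this call was lost without either SC DT library or α7Sca1 replicate 2. Apod, an apolipoprotein of stromal cells, was at 244 and 184 RPKM in α7Sca1 cells, against 100.1 and 130.2 RPKM in SCs DT (adjusted p = 0.245 by limma).

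The SC DT libraries differed from each other in many of the genes that rose most. Of the 174 genes that rose by at least 3 on the log2 scale, 160 had a higher value in SC DT replicate 2, beside 53.2% of all genes tested, and the median ratio of replicate 2 to replicate 1 was 1.75 for them and 1.02 for all genes. For Adipoq the 2 SC DT libraries had 5.82 and 23.9 RPKM, for Hp 21.2 and 108 RPKM and for Cfd 72.03 and 379 RPKM. Macrophage genes were also higher there, at 383 and 740.6 RPKM in the sum of the list. By list, replicate 2 was the higher SC DT library for 10 of 14 adipokines and 15 of 21 droplet and lipolysis genes. The same held for 15 of 19 uptake genes. Replicate 1 was the higher for 12 of 19 lipid synthesis genes, whose sums were 163 and 129 RPKM. Of these sums Elovl5, which fell, made up 95.2 and 64.03 RPKM. Replicate 2 was the higher for 10 of 18 adipogenic factors, whose sums were 57.7 and 56.1 RPKM. In those sums Cebpd, which was not called, had 13.8 and 9.58 RPKM, and Pparg 0.887 and 1.08 RPKM. The part of these differences in the results was not tested. Without SC DT replicate 2 the count of adipokines that rose was 9 and that of droplet genes 16.

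Genes of brown and beige fat gave fewer calls than the adipocyte lists above. Of 20 genes listed, 16 passed the filter, 4 rose and 1 fell (median 0.12). Over all genes tested 15.2% were higher and 16.1% lower. Ucp1, the uncoupling protein that defines brown fat, stayed under the filter, at 0.117 and 0.0509 RPKM in α7Sca1 cells, against 0.0291 and 0.221 RPKM in SCs DT, as did Zic1, Tbx1 and Tmem26. Prdm16 was at 0.3404 and 0.439 RPKM in α7Sca1 cells, against 0.734 and 0.395 RPKM in SCs DT, and Cidea at 0.207 and 1.61 RPKM in α7Sca1 cells, against 0.3202 and 0.377 RPKM in SCs DT, so that both overlapped between the groups. Ppargc1a, the coactivator of mitochondrial genes, was called but spread widely in α7Sca1 cells, at 1.98 and 11.1 RPKM in α7Sca1 cells, against 0.787 and 0.693 RPKM in SCs DT (log2 fold change 1.79, adjusted p = 0.0444 by limma), and its call was lost without any one of the 4 SC libraries. Pdk4, which restrains glucose oxidation, was at 29.5 and 65.9 RPKM in α7Sca1 cells, against 13.6 and 21.4 RPKM in SCs DT (log2 fold change 1.32, adjusted p = 0.0478 by limma) and lost its call without these or α7Sca1 replicate 2. Lhx8 and Ucp3 rose at low levels, Lhx8 at 0.894 and 1.24 RPKM in α7Sca1 cells, against 0.0199 and 0.0365 RPKM in SCs DT and Ucp3 at 1.07 and 1.43 RPKM in α7Sca1 cells, against 0.141 and 0.162 RPKM in SCs DT. Without any one of the 4 SC libraries 2 of the genes were called higher.

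Fuel oxidation was uneven between pathways. Beta-oxidation genes rose (15 of 19, with 2 lower, median 1.501), among them Ehhadh, a peroxisomal enzyme of the pathway, at 5.83 and 11.5 RPKM in α7Sca1 cells, against 0.328 and 0.633 RPKM in SCs DT (log2 fold change 2.65, adjusted p = 0.000743 by limma), and Eci1 (2.23). In the list of the citrate cycle and related enzymes 5 of 19 genes rose and none fell (median 0.46). Most of these calls were lost without either SC DT library, and the count also moved without α7Sca1 replicate 1. The largest increase was Pcx, pyruvate carboxylase, which feeds the cycle and lipogenesis, at 84.9 and 135 RPKM in α7Sca1 cells, against 1.701 and 4.02 RPKM in SCs DT (log2 fold change 4.88, adjusted p = 0.000188 by limma), while Cs, citrate synthase, was not called (log2 fold change -0.25, adjusted p = 0.451 by limma). In glycolysis 4 of 18 genes rose and 8 fell (median -0.42), and 4 fell without either SC DT library, and 2 rose without SC DT replicate 2. The genes that fell most were the muscle isoforms Pgam2, at 0.611 and 0.877 RPKM in α7Sca1 cells, against 21.8 and 24.9 RPKM in SCs DT (log2 fold change -3.804, adjusted p = 0.000161 by limma), and Eno3, at 12.3 and 5.28 RPKM in α7Sca1 cells, against 113 and 117 RPKM in SCs DT (log2 fold change -3.66, adjusted p = 0.000655 by limma). Hk2 rose (log2 fold change 2.12, adjusted p = 0.000519 by limma), as did Ldhb (log2 fold change 1.08, adjusted p = 0.009 by limma), Ldhb not without SC DT replicate 2.

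Insulin and glucose genes gave fewer calls. Of 17, 7 rose and 1 fell (median 0.43), and the count that rose was 1 without SC DT replicate 1, 2 without SC DT replicate 2 and 3 without α7Sca1 replicate 2. Trarg1 (listed as Tusc5), a partner of the glucose transporter of fat, was at 24.1 and 10.8 RPKM in α7Sca1 cells, against 0.542 and 1.01 RPKM in SCs DT (log2 fold change 3.29, adjusted p = 0.000667 by limma). The transporter Slc2a4 itself was at 17.5 and 30.98 RPKM in α7Sca1 cells, against 7.93 and 8.73 RPKM in SCs DT (log2 fold change 1.38, adjusted p = 0.00945 by limma), a call lost without either SC DT library, and Slc2a1 at 103 and 77.5 RPKM in α7Sca1 cells, against 29.9 and 37.6 RPKM in SCs DT (log2 fold change 1.39, adjusted p = 0.00815 by limma), lost without SC DT replicate 1. The list of adipocyte detoxification and small-molecule enzymes, chosen like the others with earlier results of these data known, was called more evenly. Of 19, 17 rose and 0 fell (median 3.37), with Cat, catalase, at 316 and 409 RPKM in α7Sca1 cells, against 9.61 and 14.3 RPKM in SCs DT (log2 fold change 4.82, adjusted p = 0.000132 by limma), and Mgst1, a microsomal glutathione transferase, at 605 and 792 RPKM in α7Sca1 cells, against 14.98 and 37.7 RPKM in SCs DT (log2 fold change 4.801, adjusted p = 0.000368 by limma). The carboxylesterases Ces1d and Ces1f, which hydrolyse lipid esters, had log2 fold changes of 5.601 and 5.04.

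**Figure D3:**
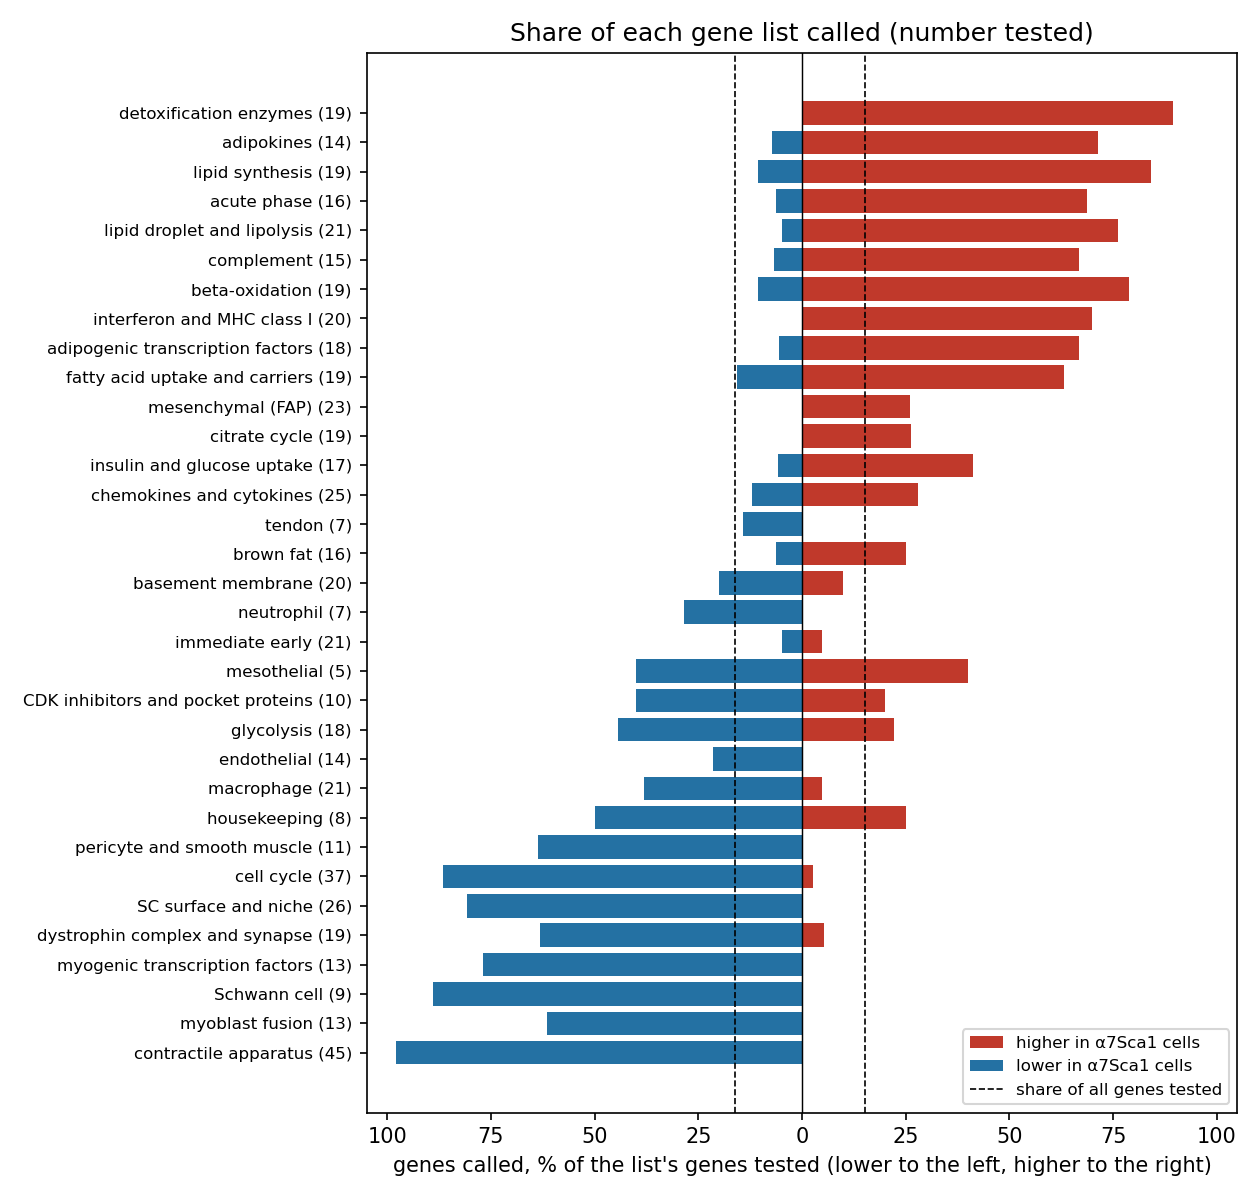
Share of the tested genes of each list with at least 5 genes tested that were called higher (red, to the right) or lower (blue, to the left) in α7Sca1 cells, with the number tested in brackets and lists in order of their median log2 fold change. Dashed lines mark the shares over all genes tested, 15.2% higher and 16.1% lower, and the contractile list, with 44 of 45 genes lower, lies farthest from them on the lower side.

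Secreted proteins of the acute phase and of complement were among the most abundant transcripts. Of 16 acute-phase genes, 11 rose and 1 fell (median 2.37). Hp, haptoglobin, was at 2287 and 2907 RPKM in α7Sca1 cells, against 21.2 and 108 RPKM in SCs DT (log2 fold change 5.71, adjusted p = 0.000896 by limma). Saa3, the serum amyloid A of tissues, was at 1559 and 2505 RPKM in α7Sca1 cells, against 91.1 and 131 RPKM in SCs DT (log2 fold change 4.17, adjusted p = 0.000205 by limma), and Lcn2, which binds bacterial siderophores, at 1131 and 875 RPKM in α7Sca1 cells, against 46.1 and 57.6 RPKM in SCs DT (log2 fold change 4.24, adjusted p = 0.00028 by limma). Hpx (log2 fold change 5.02) and Orm1 (4.47) also rose. Il6ra, the receptor of IL-6, rose (log2 fold change 2.43, adjusted p = 0.00146 by limma), whereas Il6 fell, at 66.5 and 40.6 RPKM in α7Sca1 cells, against 137 and 139.6 RPKM in SCs DT (log2 fold change -1.39, adjusted p = 0.0141 by limma), a call lost without either SC DT library. Socs3, the feedback inhibitor of this pathway, was at 111 and 233 RPKM in α7Sca1 cells, against 54.9 and 70.96 RPKM in SCs DT (adjusted p = 0.0865 by limma).

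Complement genes mostly rose. Of 15 genes, 10 rose and 1 fell (median 1.82), Cfd counted here too. C3, the central component, was at 261 and 306 RPKM in α7Sca1 cells, against 11.9 and 27.1 RPKM in SCs DT (log2 fold change 3.897, adjusted p = 0.0006 by limma). C4b was at 5.06, Cfb at 4.07 and C2 at 3.14 on the log2 fold change scale. Cfp, properdin, made by myeloid cells, fell (log2 fold change -1.23, adjusted p = 0.0325 by limma), a call lost without SC DT replicate 2 or either α7Sca1 library. The myeloid receptors C3ar1 and C5ar1 were not called, with log2 fold changes of -1.01 and -0.797.

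In the fit of all 6 libraries, cytokine genes were called both ways and interferon and MHC class I genes only higher. Of 25 chemokines and cytokines, 7 rose and 3 fell (median 0.29). The count that rose was 3 without SC DT replicate 1 and 4 without SC DT replicate 2 or α7Sca1 replicate 1, and 1 fell without SC DT replicate 2. Cxcl13, a B cell attractant, was at 168 and 527 RPKM in α7Sca1 cells, against 2.27 and 11.5 RPKM in SCs DT (log2 fold change 5.55, adjusted p = 0.00133 by limma). Cxcl9 (log2 fold change 2.82, adjusted p = 0.00024 by limma) and Cxcl10 (log2 fold change 2.15, adjusted p = 0.00104 by limma), both induced by interferon, also rose. Tnf (log2 fold change -1.42, adjusted p = 0.00947 by limma), Il1b (log2 fold change -1.39, adjusted p = 0.0107 by limma) and Cxcl2 (log2 fold change -1.41, adjusted p = 0.0109 by limma) fell, the call of Tnf being lost without SC DT replicate 2, that of Il1b without α7Sca1 replicate 1 and that of Cxcl2 without either SC DT library. Cxcl1, an attractant of neutrophils, was at 622 and 421 RPKM in α7Sca1 cells, against 1048 and 875 RPKM in SCs DT (adjusted p = 0.0549 by limma). Of 20 interferon and MHC class I genes, 14 rose and 0 fell (median 1.39), with 7 called without SC DT replicate 1 and 8 without SC DT replicate 2. Ifi27l2a, a mitochondrial protein induced by interferon, was at 944 and 568 RPKM in α7Sca1 cells, against 35.05 and 36.2 RPKM in SCs DT (log2 fold change 4.32, adjusted p = 0.000192 by limma). H2-K1, an MHC class I heavy chain, was at 501 and 622 RPKM in α7Sca1 cells, against 73.3 and 115 RPKM in SCs DT (log2 fold change 2.59, adjusted p = 0.00109 by limma), and Psmb9, an immunoproteasome subunit, at 45.9 and 32.8 RPKM in α7Sca1 cells, against 3.39 and 4.396 RPKM in SCs DT (log2 fold change 3.03, adjusted p = 0.000221 by limma). Isg15, a classical interferon target, was not called, at 38.9 and 25.3 RPKM in α7Sca1 cells, against 44.6 and 45.3 RPKM in SCs DT (adjusted p = 0.168 by limma).

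The contractile list fell almost as a whole. Of 45 genes tested of 46 listed, 44 fell and 0 rose, with a median log2 fold change of -3.43 and a summed level of 156 and 115 RPKM in α7Sca1 cells, against 3056 and 4016 RPKM in SCs DT. Myh7, the slow myosin heavy chain, was low in both groups and was not called (log2 fold change -0.26, adjusted p = 0.0848 by limma), and Myh2 stayed under the filter. Of the fast and developmental heavy chains, Myh3, the embryonic form, was at 0.594 and 1.03 RPKM in α7Sca1 cells, against 9.97 and 18.3 RPKM in SCs DT (log2 fold change -3.02, adjusted p = 0.00284 by limma), and Myh4 at 0.199 and 0.5297 RPKM in α7Sca1 cells, against 7.82 and 10.8 RPKM in SCs DT (log2 fold change -2.91, adjusted p = 0.000205 by limma). Des, the intermediate filament desmin, which SCs express before fusion, was at 36.2 and 18.4 RPKM in α7Sca1 cells, against 325 and 334 RPKM in SCs DT (log2 fold change -3.62, adjusted p = 0.000569 by limma). Tnnt2 and Myl4, isoforms of developing and cardiac muscle, had log2 fold changes of -4.07 and -4.03. Between 42 and 43 of the genes were called lower without any one of the 6 libraries.

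Myogenic regulators fell at every step of the lineage. Of 14 listed, 13 were tested, 10 fell and 0 rose (median -1.56). Pax7 was at 0.3796 and 0.319 RPKM in α7Sca1 cells, against 3.45 and 2.67 RPKM in SCs DT (log2 fold change -1.58, adjusted p = 0.000855 by limma). Myf5 was at 2.08 and 4.17 RPKM in α7Sca1 cells, against 38.4 and 67.6 RPKM in SCs DT (log2 fold change -3.705, adjusted p = 0.000438 by limma), Myod1 at 3.72 and 2.44 RPKM in α7Sca1 cells, against 40.4 and 47.7 RPKM in SCs DT (log2 fold change -3.48, adjusted p = 0.000188 by limma), while Myog was at 10.01 and 7.22 RPKM in α7Sca1 cells, against 185 and 201 RPKM in SCs DT (log2 fold change -4.35, adjusted p = 0.000236 by limma). All of these were measurable in the α7Sca1 libraries, with Myog the highest of them there. Mef2d (log2 fold change -0.65, adjusted p = 0.0967 by limma) and Eya2, a coactivator of the lineage, were not called. Of 13 fusion genes 8 fell (median -1.58), the fusogens Mymk (listed as Tmem8c) and Mymx (listed as Gm7325) among them. Mymk was at 3.99 and 2.78 RPKM in α7Sca1 cells, against 69.02 and 94.2 RPKM in SCs DT (log2 fold change -4.23, adjusted p = 0.00025 by limma). Mymx was at 1.01 and 1.399 RPKM in α7Sca1 cells, against 27.9 and 32.7 RPKM in SCs DT (log2 fold change -3.83, adjusted p = 0.000256 by limma).

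Surface and niche genes of SCs fell as well. Of 26 genes, 21 fell and 0 rose (median -1.32), and 11 fell without SC DT replicate 1. Cdh15, M-cadherin, was at 7.45 and 2.98 RPKM in α7Sca1 cells, against 48.2 and 48.3 RPKM in SCs DT (log2 fold change -3.09, adjusted p = 0.00102 by limma). The Notch target Heyl was at 4.22 and 1.91 RPKM in α7Sca1 cells, against 28.8 and 30.3 RPKM in SCs DT (log2 fold change -2.97, adjusted p = 0.00053 by limma), with Notch3 (-2.33) and Hey1 (-1.89) also lower. Vcam1, an adhesion receptor used to sort SCs, was at 27.9 and 14.3 RPKM in α7Sca1 cells, against 52.4 and 58.7 RPKM in SCs DT (log2 fold change -1.42, adjusted p = 0.0145 by limma), a call lost without either SC DT library. Sdc4, a syndecan of SCs and of many other cells, was at 215 and 344 RPKM in α7Sca1 cells, against 261 and 316 RPKM in SCs DT and overlapped. Met, the receptor of hepatocyte growth factor, was not called (log2 fold change -0.47, adjusted p = 0.105 by limma). Of the 21 genes that fell in this list, Itga7, the sort marker, had one of the 3 smallest decreases, and Itgb1, its β subunit, was at 18.2 and 9.73 RPKM in α7Sca1 cells, against 59.5 and 36.4 RPKM in SCs DT (log2 fold change -1.73, adjusted p = 0.00989 by limma) and lost its call without SC DT replicate 1.

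Genes of the dystrophin complex and of the neuromuscular synapse mostly fell. Of 19, 12 fell and 1 rose (median -1.32). Chrna1, a subunit of the acetylcholine receptor, was at 7.38 and 3.26 RPKM in α7Sca1 cells, against 49.99 and 61.3 RPKM in SCs DT (log2 fold change -3.24, adjusted p = 0.000718 by limma), and Rapsn, which clusters the receptor, at 2.93 and 2.11 RPKM in α7Sca1 cells, against 22.96 and 29.7 RPKM in SCs DT (log2 fold change -2.95, adjusted p = 0.000221 by limma). Dmd, the dystrophin gene mutated in mdx mice, was low in both groups, at 0.528 and 0.449 RPKM in α7Sca1 cells, against 1.34 and 1.12 RPKM in SCs DT (log2 fold change -0.58, adjusted p = 0.0182 by limma), and its call was lost without either SC DT library or α7Sca1 replicate 2.

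Cell cycle genes were lower in α7Sca1 cells, but the count depended on the SC DT libraries. Of 37 genes, 32 fell and 1 rose (median -1.23), 12 fell without SC DT replicate 1 and 20 without SC DT replicate 2. Rrm2, which supplies deoxynucleotides, was at 5.002 and 4.26 RPKM in α7Sca1 cells, against 31.998 and 38.8 RPKM in SCs DT (log2 fold change -2.69, adjusted p = 0.000286 by limma). Ccnd1, cyclin D1, was at 2.81 and 1.95 RPKM in α7Sca1 cells, against 11.99 and 13.7 RPKM in SCs DT (log2 fold change -2.04, adjusted p = 0.00065 by limma). Mki67, the proliferation antigen, was low in both, at 0.169 and 0.211 RPKM in α7Sca1 cells, against 1.46 and 1.36 RPKM in SCs DT (log2 fold change -1.02, adjusted p = 0.00593 by limma), not called without SC DT replicate 1. The member that rose was Ccnd2, cyclin D2, at 24.5 and 23.6 RPKM in α7Sca1 cells, against 9.59 and 9.42 RPKM in SCs DT (log2 fold change 1.25, adjusted p = 0.00334 by limma). Among 10 cyclin-dependent kinase inhibitors and pocket proteins, 2 rose and 4 fell. Cdkn2c, p18, was at 15.8 and 13.6 RPKM in α7Sca1 cells, against 2.63 and 3.12 RPKM in SCs DT (log2 fold change 2.01, adjusted p = 0.000438 by limma), and Cdkn2d, p19, also rose (log2 fold change 0.76, adjusted p = 0.00494 by limma). Cdkn1a, p21, which halts dividing myoblasts, was at 80.9 and 112 RPKM in α7Sca1 cells, against 257 and 299 RPKM in SCs DT (log2 fold change -1.53, adjusted p = 0.00535 by limma), a call lost without either SC DT library. Cdkn1c, p57, was at 2.99 and 1.58 RPKM in α7Sca1 cells, against 24.1 and 8.703 RPKM in SCs DT (log2 fold change -2.28, adjusted p = 0.00806 by limma), lost without α7Sca1 replicate 2, and Cdkn1b, p27, fell as well (log2 fold change -1.13, adjusted p = 0.00417 by limma).

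Within several gene families one member rose while a relative fell. These families were picked after their values were seen. Of the stearoyl-CoA desaturases, Scd1 was at 347 and 212 RPKM in α7Sca1 cells, against 11.5 and 10.9 RPKM in SCs DT, and Scd2 at 7.87 and 2.98 RPKM in α7Sca1 cells, against 16.3 and 12.8 RPKM in SCs DT (log2 fold change -1.38, adjusted p = 0.0263 by limma), a call lost without any one of the 4 SC libraries. Of the fatty acid binding proteins, Fabp4 rose, and Fabp3, the form of muscle and heart, was at 2.52 and 1.39 RPKM in α7Sca1 cells, against 8.76 and 10.7 RPKM in SCs DT (log2 fold change -1.88, adjusted p = 0.00136 by limma). Fabp5 was lower too (log2 fold change -1.44, adjusted p = 0.0363 by limma), but not without any one SC library or α7Sca1 replicate 2. Acsl1 rose, against a decrease of Acsl3, at 0.938 and 0.816 RPKM in α7Sca1 cells, against 5.79 and 4.53 RPKM in SCs DT (log2 fold change -1.71, adjusted p = 0.000734 by limma). Fitm2, a droplet biogenesis protein of fat, was at 26.4 and 55.4 RPKM in α7Sca1 cells, against 5.03 and 7.38 RPKM in SCs DT (log2 fold change 2.47, adjusted p = 0.00234 by limma), and Fitm1, its muscle relative, at 1.25 and 0.589 RPKM in α7Sca1 cells, against 10.2 and 7.92 RPKM in SCs DT (log2 fold change -2.403, adjusted p = 0.000941 by limma). Cpt2 rose (log2 fold change 1.96, adjusted p = 0.001 by limma) while Cpt1a, which controls entry of fatty acids into mitochondria, was at 2.701 and 1.68 RPKM in α7Sca1 cells, against 8.64 and 7.97 RPKM in SCs DT (log2 fold change -1.56, adjusted p = 0.0021 by limma), and Cpt1b fell too (log2 fold change -0.71, adjusted p = 0.0161 by limma), not without either SC DT library or α7Sca1 replicate 2. Hk2 rose and Hk1 fell (log2 fold change -1.09, adjusted p = 0.032 by limma), and Pfkl rose (log2 fold change 0.97, adjusted p = 0.0383 by limma) where Pfkm, of muscle, fell (log2 fold change -1.5004, adjusted p = 0.00204 by limma). The calls of Hk1 and Pfkl were lost without any one SC library, that of Hk1 also without α7Sca1 replicate 2 and that of Pfkl also without α7Sca1 replicate 1. Igf1 was at 9.26 and 24.02 RPKM in α7Sca1 cells, against 1.98 and 2.76 RPKM in SCs DT (log2 fold change 2.26, adjusted p = 0.0176 by limma), a call lost without either SC DT library or α7Sca1 replicate 2, and Igf2, the fetal form that myoblasts secrete, at 4.35 and 1.65 RPKM in α7Sca1 cells, against 27.7 and 25.8 RPKM in SCs DT (log2 fold change -2.88, adjusted p = 0.001 by limma). Among sarcoglycans, Sgcd rose (log2 fold change 1.07, adjusted p = 0.00234 by limma), and Sgca, of striated muscle, fell (log2 fold change -2.97, adjusted p = 0.000377 by limma).

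**Figure D4:**
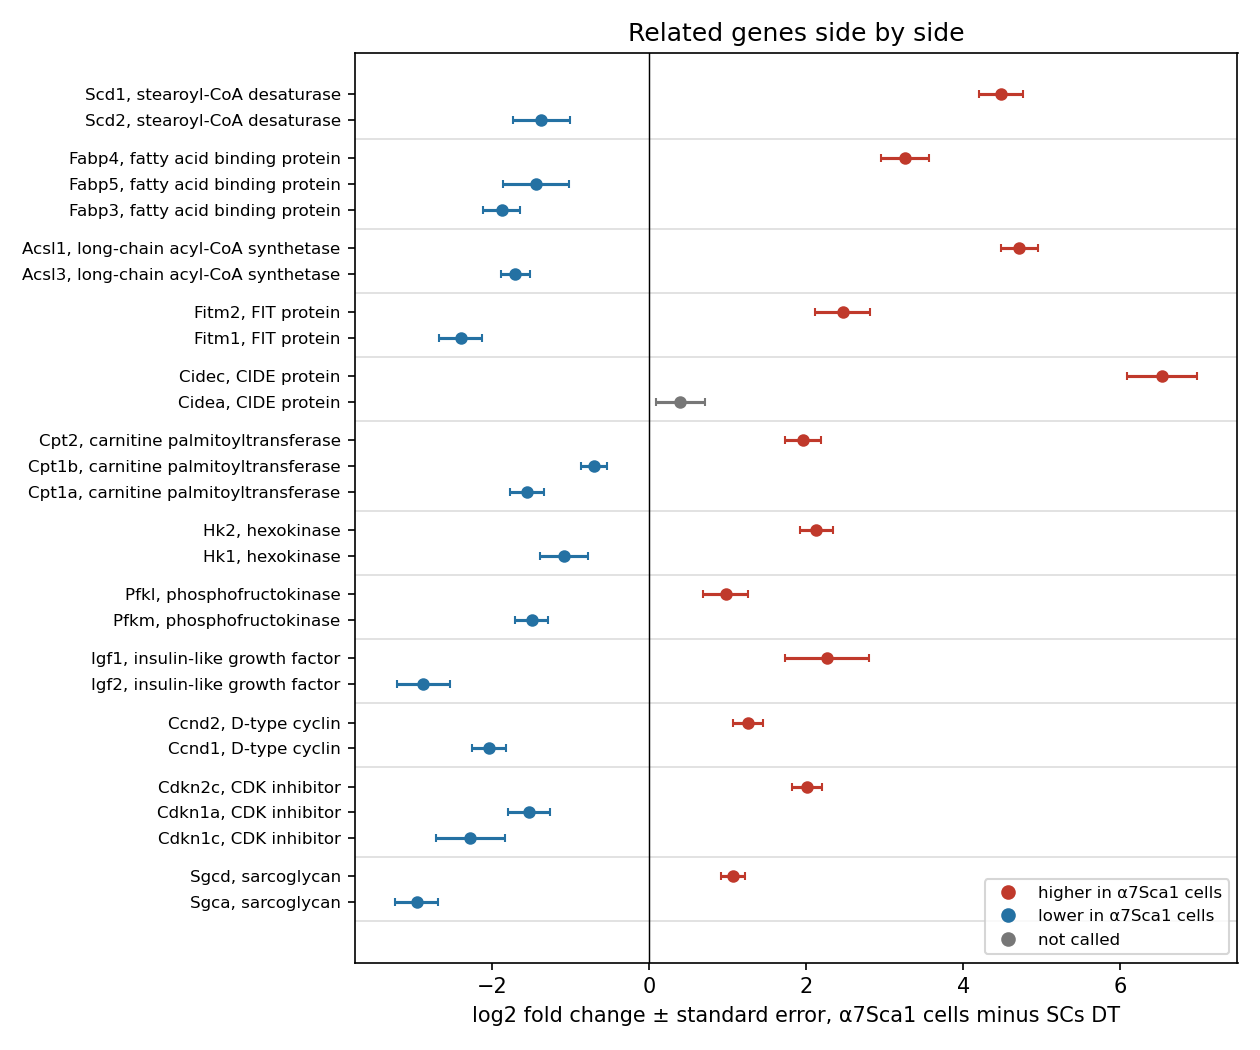
Log2 fold change with its standard error, α7Sca1 cells minus SCs DT, of members of 12 gene families (horizontal axis). Red points were called higher, blue points lower and the grey point, Cidea, was not called. In 11 of the families at least 1 member lies on each side of 0 with a call.

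Genes that mark FAPs and other mesenchymal cells gave fewer calls than the adipocyte lists. Of 23 genes, Ly6a of the sort among them, 6 rose and 0 fell (median 0.75), and 3 rose without SC DT replicate 1 or without α7Sca1 replicate 1. Pdgfra, the receptor that defines FAPs, was at 4.55 and 3.54 RPKM in α7Sca1 cells, against 0.665 and 1.65 RPKM in SCs DT (log2 fold change 1.26, adjusted p = 0.0141 by limma), not called without SC DT replicate 1 or α7Sca1 replicate 1. Gsn, the actin-severing protein gelsolin, was at 1173 and 1131 RPKM in α7Sca1 cells, against 163 and 230.3 RPKM in SCs DT (log2 fold change 2.57, adjusted p = 0.00219 by limma). Dcn, decorin, was at 575 and 386 RPKM in α7Sca1 cells, against 116 and 168 RPKM in SCs DT (adjusted p = 0.118 by limma), and Col1a1 at 223 and 113 RPKM in α7Sca1 cells, against 80.9 and 109 RPKM in SCs DT (adjusted p = 0.589). Pi16 and Dpp4, markers of a progenitor subset, were not called. The sum of the list was 2962 and 2243 RPKM in α7Sca1 cells, against 687 and 915 RPKM in SCs DT, and 21 of 23 genes were higher in α7Sca1 replicate 1 than in replicate 2. Basement membrane genes gave 2 increases and 4 decreases of 20 genes, with 0 and 1 without either SC DT library, 1 increase without α7Sca1 replicate 1 and 2 decreases without α7Sca1 replicate 2. Lama4 rose (log2 fold change 1.48, adjusted p = 0.0105 by limma), not without α7Sca1 replicate 1 or either SC DT library, and Lama5 fell (log2 fold change -2.16, adjusted p = 0.000629 by limma). Tendon genes, 7 tested, gave 1 decrease, of Scx, and no increase, and the call of Scx was lost without SC DT replicate 1 or either α7Sca1 library.

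Markers of other cells that the gates could hold were mostly lower in α7Sca1 cells. Of 9 Schwann cell genes 8 fell and none rose (3 without SC DT replicate 1 and 5 without α7Sca1 replicate 2), with sums of 191 and 89.7 RPKM in α7Sca1 cells, against 796 and 459 RPKM in SCs DT. Of 11 pericyte and smooth muscle genes 7 fell, 3 without SC DT replicate 1, with sums of 274 and 114 RPKM in α7Sca1 cells, against 1602 and 1105 RPKM in SCs DT. Acta2, smooth muscle actin, was at 80.2 and 15.3 RPKM in α7Sca1 cells, against 875 and 545 RPKM in SCs DT (log2 fold change -4.25, adjusted p = 0.00376 by limma), not called without SC DT replicate 1, and Myh11, the smooth muscle myosin, at 3.33 and 1.58 RPKM in α7Sca1 cells, against 59.4 and 36.9 RPKM in SCs DT (log2 fold change -3.84, adjusted p = 0.000285 by limma). None of these markers was at 0 in any library. Their part in the genes that fell was not tested.

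Blood and vessel markers, whose cells the Lin gate selects against, were detected in both groups. Pecam1, which encodes CD31, was at 6.26 and 3.41 RPKM in α7Sca1 cells, against 9.18 and 13.8 RPKM in SCs DT (log2 fold change -1.12, adjusted p = 0.0464 by limma), a call lost without any one SC library or α7Sca1 replicate 2, and Ptprc, which encodes CD45, at 0.366 and 0.513 RPKM in α7Sca1 cells, against 0.748 and 1.15 RPKM in SCs DT (adjusted p = 0.139 by limma). Of 14 endothelial genes 3 fell, 0 without either SC DT library and 1 without α7Sca1 replicate 2, with sums of 53.7 and 27.96 RPKM in α7Sca1 cells, against 83.8 and 103 RPKM in SCs DT. Of 21 macrophage genes 8 fell and 1 rose, with sums of 373 and 339.99 RPKM in α7Sca1 cells, against 383 and 741 RPKM in SCs DT. The count that fell was 1 without SC DT replicate 2, the library with the highest values, 5 without SC DT replicate 1, and 4 and 2 without α7Sca1 replicate 1 and 2. Lyz2, lysozyme of myeloid cells, was at 62.1 and 41.6 RPKM in α7Sca1 cells, against 138 and 253 RPKM in SCs DT (log2 fold change -1.86, adjusted p = 0.018 by limma), not called without either SC DT library or α7Sca1 replicate 2. Cd14, which fat cells also express, was the member that rose, at 194 and 197 RPKM in α7Sca1 cells, against 42.6 and 106 RPKM in SCs DT (log2 fold change 1.53, adjusted p = 0.0322 by limma), and its call was lost without any one library except SC DT replicate 2. Of 7 neutrophil genes 2 fell, S100a8 (log2 fold change -1.41, adjusted p = 0.00453 by limma) and S100a9 (log2 fold change -1.47, adjusted p = 0.00799 by limma), S100a9 not without SC DT replicate 2, and without α7Sca1 replicate 2 the list had 2 genes called higher and 3 lower. Of 5 mesothelial genes tested 2 rose and 2 fell, none of the calls holding without SC DT replicate 2, and Wt1 and Upk3b stayed under the filter. The 3 erythroid genes were not called.

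**Figure D5:**
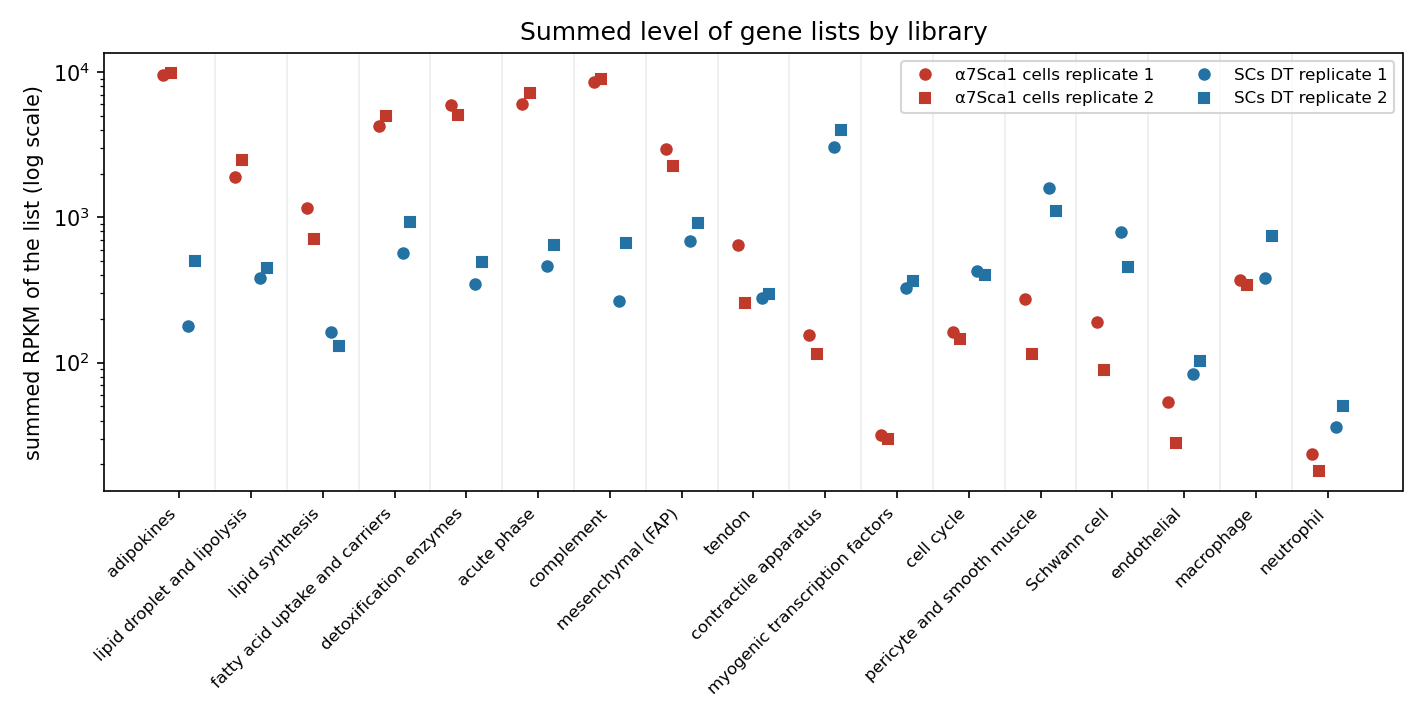
Summed RPKM on a log scale of 17 gene lists in the 2 α7Sca1 libraries (red, left in each pair) and the 2 SC DT libraries (blue, right), with circles for replicate 1 and squares for replicate 2. The groups do not overlap except in the tendon list, beside 67.8% of single genes tested that did not overlap. The macrophage sums nearly meet, at 373 RPKM in α7Sca1 replicate 1 and 383 RPKM in SC DT replicate 1. The SC DT libraries stand apart from each other in the adipokine, complement and macrophage lists.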

How the data were processed

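RNA of sorted cells was amplified by SMART-seq2, a protocol for polyadenylated RNA, and read as 50 bp single ends in 6 libraries. The authors deposited RPKM values from reads aligned to mm9 with TopHat (TopHat2 2.0.8 in the submitters' processing notes), already brought to one distribution. Depth is thus unknown and no counting interval is given. The deposited table of another comparison holds log2 fold changes and p-values of the authors and 10 columns of values per sample, 4 of another cell type, and none of it was used. Groups and replicate numbers were taken from sample titles. Nothing says whether α7Sca1 and SC libraries of one number came from the same mice. Nor is it said whether libraries of a group were prepared apart beyond being separate pools. The p-values therefore weigh a difference against the spread between pools. That spread was estimated in common over the 6 libraries and moderated by that of other genes.

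Values were taken as log2(RPKM + 1) and fitted over 6 libraries with a variance trend in limma (version 3.58.1, under R 4.3.3), after a test on simulated data. The members and gene lists were chosen with earlier results of these data known. Of 606 list entries, 596 matched by symbol, 5 by an older symbol, and 5 (Col6a3, C1s, Ly6g, Hba-a1, Hbb-b2) are not analysed here. Genes were named if they were a sort or adipocyte marker of the definition, among the 12 largest changes each way, among up to 6 called or 4 highest members of a list, in a list of regulators or cell type markers, or among the 10 genes that differed most between libraries of a group. Of these a selection is described, and these genes outside the rule were chosen after their values were seen: Abhd5, Acaca, Acly, Acsl3, C3ar1, C5ar1, Cd36, Cfp, Ckmt2, Cpt1a, Cpt1b, Cs, Cxcl2, Dgat1, Dmd, Elovl6, Fabp3, Fabp5, Fasn, Fitm1, Fitm2, G0s2, Gpam, Hk1, Hprt, Il1b, Il6, Il6ra, Isg15, Ldhb, Mgll, Mir3074-1, Mki67, Mup5, Myh2, Myh3, Myh4, Myh7, Myl4, Pfkl, Plin3, Plin5, Ptrf, Scd2, Sgcd, Socs3, Tbp and Tnnt2. The alternatives tried were rescaling by median ratios, 2 other filters, a pseudocount of 0.1 or 0.5 RPKM, the 4 libraries alone, a replicate block, no variance trend and each library left out. Gene positions are from GENCODE mouse release M1 on NCBIM37. Of the 13611 genes, 10059 had a RefSeq promoter, and the first entry of a gene was used. Tables were handled in Python 3.11.15 with pandas 2.3.3 and numpy 2.4.6, and plots drawn in matplotlib 3.10.9. Some genes of the lists are not reported here by name.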

Additional observations from a re-analysis of the deposited data

How the results depend on the processing

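Leaving out 1 library had the most effect on the counts. The number of genes called higher ranged between 854 and 2398 and the number called lower between 791 and 2115, lowest without SC DT replicate 1. Without it 846 of the 2066 genes called higher and 750 of the 2194 called lower were called in the same direction. Under the other alternatives the counts stayed within 1.5 times, from 1667 to 2314 higher and from 1754 to 2331 lower, and no called gene changed sign under any alternative. Rescaling by median ratios gave 2314 higher and 1908 lower and moved the median of all genes to 0.02. Of the 177 called genes named, 164 kept the call under each alternative other than leaving out 1 library and 134 without each library in turn. Among genes that were not called, 3 changed sign. The log2 fold change of Sdc4 was 0.032 under median ratios, and with 1 library left out it ranged from -0.41 to 0.26 for Sdc4, from -0.16 to 0.95 for Cidea and from -0.016 to 0.62 for Tbp. The cause was not tested.

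With the replicate number as a block, 2115 genes were called higher and 2263 lower. The replicate deviations across genes correlated at 0.26 between α7Sca1 cells and SCs DT and 0.16 between α7Sca1 cells and SCs CTRL. Between SCs DT and SCs CTRL the value was -0.13. Whether libraries of one number share mice or preparation was not tested, and the main fit assumed no pairing. With n = 2 and unknown depth, genes near 0 RPKM and those tied at the ceiling are the least certain.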

Other observations

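The α7Sca1 libraries differed from each other in many gene lists. The standard deviation of the log2 difference between the 2 libraries over all genes tested was 0.48 in α7Sca1 cells and 0.32 in SCs DT. Among genes with a mean of at least 5 RPKM, Thrsp, of lipogenic tissue, was at 202 and 26.1 RPKM in α7Sca1 replicate 1 and 2. Higher in replicate 2 were Hamp2, a hepcidin, at 0.737 and 19.4 RPKM, and Hsd11b1, which activates glucocorticoids in fat, at 28.9 and 161 RPKM. By list, replicate 1 was the higher for 21 of 23 mesenchymal, 18 of 20 basement membrane, 14 of 14 endothelial, 9 of 9 Schwann cell, 9 of 11 pericyte and 6 of 7 tendon genes, beside 48.1% of all genes tested. The same held for 22 of 26 SC surface and niche, 20 of 25 chemokine and cytokine, 15 of 18 glycolysis, 15 of 19 dystrophin complex and synapse, 27 of 37 cell cycle and 14 of 19 lipid synthesis genes. Fewer were higher in replicate 1 for complement (2 of 15) and brown fat (4 of 16). With 1 pool on each side these differences have no replicate check.

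Of 8 genes often used as references, 2 rose and 4 fell, 0 and 1 without either SC DT library. Actb, β-actin, was at 913 and 545 RPKM in α7Sca1 cells, against 7389 and 7389 RPKM in SCs DT (log2 fold change -3.39, adjusted p = 0.00251 by limma), the SC DT values being the ceiling of the table. Ppia, cyclophilin A, was at 301 and 331 RPKM in α7Sca1 cells, against 1324 and 1070.5 RPKM in SCs DT (log2 fold change -1.91, adjusted p = 0.00671 by limma). Gapdh, which belongs to the glycolysis list, was at 33.4 and 16.7 RPKM in α7Sca1 cells, against 76.6 and 66.4 RPKM in SCs DT (log2 fold change -1.55, adjusted p = 0.0122 by limma). Hprt (log2 fold change -0.41, adjusted p = 0.206 by limma) and Tbp (log2 fold change 0.301, adjusted p = 0.414 by limma) were not called. The calls of Ppia and Gapdh were lost without either SC DT library. Immediate early genes, which tissue dissociation can induce, had medians of 95.02 and 105.02 RPKM in α7Sca1 cells, against 107.8 and 115.9 RPKM in SCs DT. Of 21 tested, 1 rose, Zfp36 (log2 fold change 1.56, adjusted p = 0.0142 by limma), and 1 fell, Klf6 (log2 fold change -1.22, adjusted p = 0.0128 by limma), and neither was called without either SC DT library, whereas 3 rose and 3 fell without α7Sca1 replicate 1.

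Few genes were listed at 0 in both libraries of one group while averaging 1 RPKM or more in the other. In α7Sca1 cells these were Ckmt2, the mitochondrial creatine kinase of striated muscle, with 1.92 and 1.98 RPKM in SCs DT, and Mir3074-1. In SCs DT they were Lep, with 1.505 and 1.12 RPKM in α7Sca1 cells, and Mup5. These 4 genes were singled out after their values were seen, and a listed 0 does not show absence.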
